A study of Mus musculus with 4 samples.

Results

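The collagen chains of mouse astrocyte-enriched cultures (AECs) were examined with and without oxygen–glucose deprivation (OGD) for 15 h. A gene was counted as a collagen chain if its name on the array was Col, a number, the letter a and a number, which gave 44 of 29676 gene names, read by 70 probes of 60 bases each. The AECs were cultures of cerebral cortex from newborn ICR mice, stripped of meninges, in which microglia had been depleted with the CSF1R inhibitor PLX3397, and both groups carried this depletion. Untreated AECs (n = 2) kept oxygen and glucose, whereas OGD AECs (n = 2) were held in glucose-free medium under hypoxia for 15 h, and each RNA sample was read in 1 color on its own array. AECs also hold oligodendrocyte lineage cells, as the study's authors noted, so that the arrays give the mixture and not astrocytes alone. In such bulk RNA, fewer cells of a type and less RNA per cell cannot be told apart.

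Collagens are built from 3 chains, each of which carries long runs with glycine at intervals of 3 residues, and the chains wind into a triple helix. Fibrillar chains form the load-bearing fibrils of connective tissue, fibril-associated chains (FACIT) sit on those fibrils, type IV chains form the sheet of the basement membrane, and type VI chains form beaded filaments. In the brain, collagens are concentrated in the meninges and in the basement membrane around vessels, where astrocyte endfeet adjoin it. Folding of the helix depends on prolyl 4-hydroxylase, an enzyme that uses molecular oxygen.

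The repeat can be read directly in the probes that lie on a helical stretch. Of the 70 collagen probes, 6 (8.57%) held 3 or more GG dinucleotides spaced by 9 bases, the spacing of glycine codons, against 0.912% of the 39359 other probes. Such runs are printed for the chains of types XXV, XVI, XIV and IV because they say which part of the mRNA those probes measured. The codons of the longest run are in capitals, the bases run 5′ to 3′ as on the mRNA, and positions are on mm9.
Col25a1, chr3:130270497-130270556, plus strand: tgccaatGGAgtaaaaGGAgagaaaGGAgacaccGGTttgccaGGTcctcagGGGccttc
Col16a1, chr4:129756457-129756516, plus strand: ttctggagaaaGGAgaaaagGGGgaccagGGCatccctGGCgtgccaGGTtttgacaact
Col14a1, chr15:55347733-55347792, plus strand: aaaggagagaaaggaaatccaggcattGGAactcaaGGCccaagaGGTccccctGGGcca
Col4a4, chr1:82515563-82515622, minus strand: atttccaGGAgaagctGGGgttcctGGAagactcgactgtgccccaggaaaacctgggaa

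All 4 arrays were on 1 slide and were scanned once, no spot was saturated, and 64.5% to 73.7% of spots were well above background. The 75th percentile of the signal was 2135 and 2164 without OGD and 887 and 776 with it. The log2 signal was set against this percentile, as in the study's methods, so that a change is relative to most probes of the array. With this scaling the median log2 fold change of all 21048 gene names tested was 0.16, and with scaling on the spiked-in control RNA it was −1.13. Each gene is represented by its brightest probe, and limma tested 28254 of the 28262 probes that were well above background on both arrays of a group, with Benjamini–Hochberg adjustment over them. With 2 arrays per group an exact permutation test of a single value cannot go below p = 0.333.

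Among markers of the cells that the cultures could hold, 12 of 12 astrocyte, 13 of 14 fibroblast, 11 of 11 oligodendrocyte lineage, 9 of 9 microglial, 8 of 9 neuronal, 6 of 10 mural and 5 of 9 endothelial genes passed the filter on dim probes. The summed signal of the fibroblast list was 105735 to 123455 on the untreated arrays and 52867 to 72943 after OGD, and that of the astrocyte list was 321587 to 361631 and 175127 to 196825. Of the fibroblast genes 4 were higher and 3 lower after OGD by adjusted p, and of the astrocyte genes 6 were higher and 2 lower, where 37.1% of all gene names tested were higher and 27.8% lower. The summed signal was 62804 to 64151 and then 20019 to 23621 for the oligodendrocyte lineage (4 genes higher, 4 lower), 64085 to 67553 and then 27353 to 28431 for neurons (3 higher, 2 lower) and 9556 to 10286 and then 5164 to 6146 for microglia (3 higher, 2 lower). That of the mural list was 282678 to 319440 and then 191260 to 233929 (4 higher, 1 lower), nearly all of it from *Acta2* and *Tagln*, and that of the endothelial list was 3873 to 4094 and then 1072 to 1346 (none higher, 3 lower), most of it from *Kdr*. The defining mural genes *Kcnj8*, *Abcc9* and *Des* and the endothelial genes *Cldn5*, *Tek*, *Emcn* and *Tie1* were not well above background on any array, whereas the mural genes *Rgs5*, *Cspg4*, *Notch3* and *Anpep* and the endothelial genes *Cdh5*, *Pecam1*, *Esam* and *Eng* were so on all 4. The lists share genes, since *Cspg4* is in the mural and the oligodendrocyte lineage list and *Pdgfra* in the fibroblast and the oligodendrocyte lineage list. What part the non-astrocyte cells had in the collagen signal was not tested.

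Of the 44 collagen genes, 38 passed the filter and were tested, and 32 of them were well above background on all 4 arrays. The genes left out were *Col13a1*, *Col15a1*, *Col24a1*, *Col28a1* and *Col6a6*, which were not well above background on any array, and *Col6a4*, which was so on 1 untreated array. After OGD, 13 of the 38 genes (34.2%) were higher by adjusted p, against 37.1% of all gene names tested, and 9 (23.7%) were lower, against 27.8%. With a fold over 2 as well, 2 were higher (12.7% of all gene names) and 6 were lower (15.0%), and no collagen passed the 10-fold limit of the study's methods, which 1.27% of all gene names did. The share of collagens called in either direction thus lay near that of all genes, and their median log2 fold change of 0.16 equalled that of all gene names to 2 decimals. The split moved with the processing, as did that of all gene names. With normexp 21 collagens were higher and 8 lower, where 60.5% and 20.8% of all gene names were. With the percentile taken over detected probes 8 were higher and 10 lower (30.1% and 32.5% of all gene names), and with quantile normalization 10 and 10 (28.4% and 31.1%). By probe, 20 of 52 tested were higher (37.9% of all probes) and 10 lower (27.1%).

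Before scaling, the processed signal of 36 of the 38 genes was lower on both OGD arrays than on both untreated arrays, as it was for 90.8% of all gene names. With spike-in scaling 34 were lower by adjusted p (83.3% of all gene names) and 1, *Col6a5*, was higher (3.84%). A collagen called higher in what follows, other than with normexp, therefore fell less than most genes, unless a rise before scaling is given. With normexp a collagen called higher could lie below the median of all gene names, as did *Col11a2*, *Col16a1* and *Col27a1*.

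**Figure D1:**
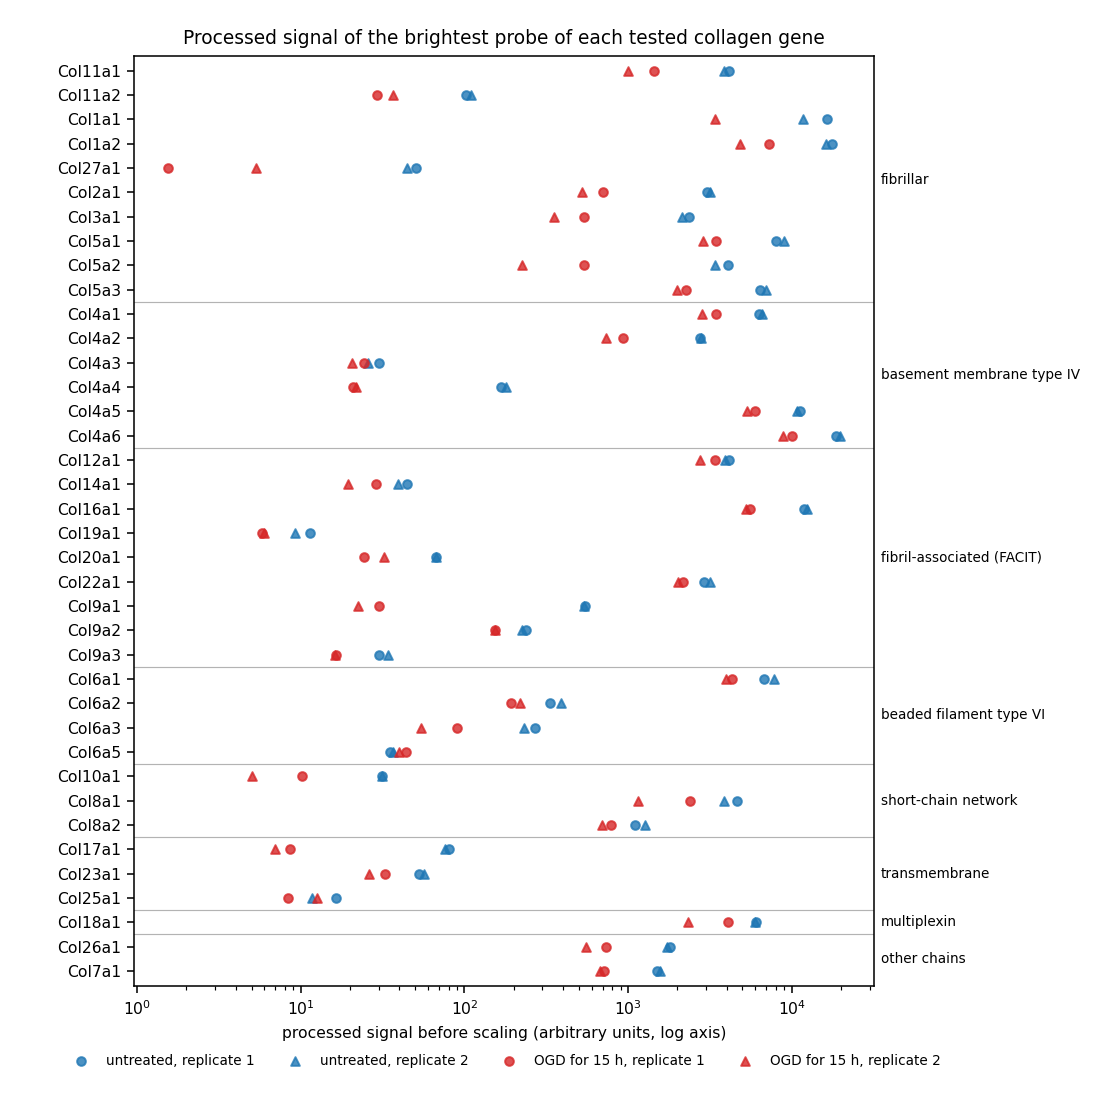
Processed signal before scaling (log axis) of the brightest probe of each of the 38 tested collagen genes, by class, with 1 point per array (blue, untreated; red, OGD for 15 h; circle and triangle, replicates 1 and 2). The red points lie to the left of the blue points for 36 genes, *Col6a5* is the gene with both red points to the right, and *Col1a1* has no point for OGD replicate 1, whose spot was marked an outlier.

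The counts by class stand against 37.1% of all gene names higher, 27.8% lower and a median log2 fold change of 0.16. Of the 10 fibrillar chains tested none was higher by adjusted p, 5 were lower and 5 were not called, with a median log2 fold change of −0.47 and all 10 below 0. The fibril-associated chains had 5 higher, 1 lower and 3 not called of 9, with a median of 0.55. Type IV had 4 higher and 2 lower of 6, with a median of 0.34, and type VI had 2 higher and none lower of 4, with a median of 0.56. Of the transmembrane chains 1 was higher and 1 lower of 3 (median 0.47), and of the short-chain network collagens 1 was higher and none lower of 3 (median 0.03). The only multiplexin tested, *Col18a1*, and the other chains *Col7a1* and *Col26a1* were not called. With normexp 2 fibrillar chains were called higher and 6 lower, and 8 fibril-associated chains higher, where 60.5% of all gene names were higher and 20.8% lower. The medians are descriptions over few genes, and no test of one class against another was made. Each fibrillar chain had a single probe, so that its direction could not be set against a second one. The fibril-associated chains counted as higher include *Col22a1*, whose downstream probe was lower at −1.12, and *Col19a1*, which was not well above background on either OGD array. With spike-in scaling the medians were −1.77 for the fibrillar, −0.74 for the fibril-associated, −0.95 for the type IV and −0.73 for the type VI chains.

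**Figure D2:**
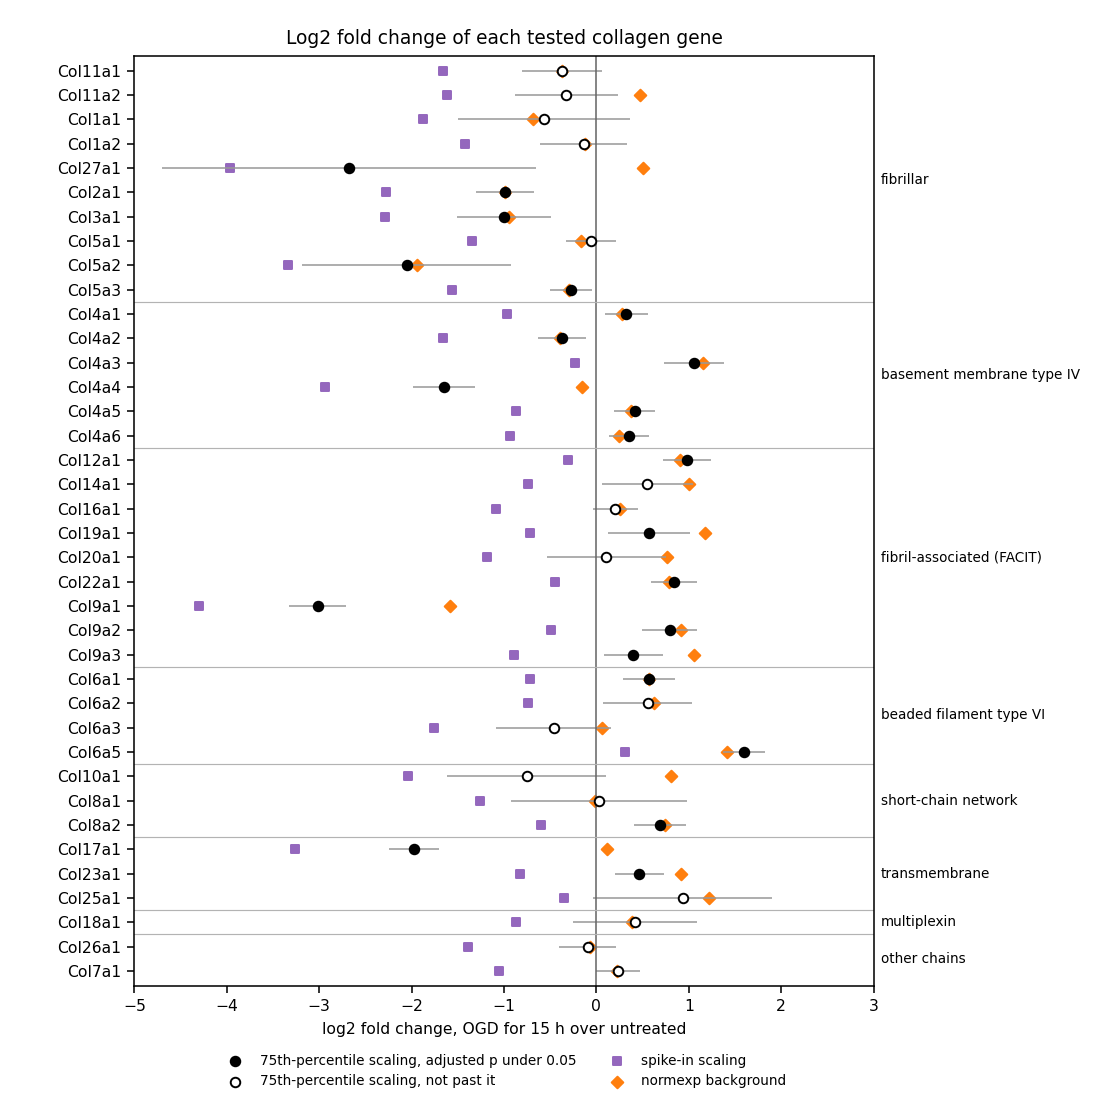
Log2 fold change of OGD over untreated AECs for the 38 tested collagen genes by class, with 75th-percentile scaling (black circle with its 95% interval, filled where the adjusted p of limma was under 0.05), spike-in scaling (purple square) and normexp background correction (orange diamond). All 10 fibrillar chains lie below 0 with 75th-percentile scaling, all genes but *Col6a5* lie below 0 with spike-in scaling, and *Col27a1*, *Col17a1*, *Col11a2*, *Col10a1*, *Col6a3* and *Col8a1* cross 0 with normexp.

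Among the fibrillar chains, *Col5a2* had the deepest fall of those measured on every array. *Col5a2* encodes a chain of type V collagen, which lies inside type I fibrils and limits their width. Its probe lies on chr1:45431204-45431263 of mm9. Untreated AECs gave a processed signal of 4080 and 3420, and OGD AECs one of 537 and 226, so that the groups were far apart, with the OGD replicates spread over more than the untreated ones. The log2 fold change of *Col5a2* was −2.05 ± 0.40 (SE, n = 2 per group; adjusted p = 0.0152), a 4.14-fold fall, and it was −1.94 with normexp and −3.34 with spike-in scaling. It was not called without either untreated array (adjusted p = 0.0765 without replicate 1 and 0.0631 without replicate 2), nor by the unmoderated test per probe that the study's methods name, after Benjamini–Hochberg adjustment. The partner chain *Col5a1* was at 7982 and 8993 in untreated AECs and 3456 and 2868 after OGD, a scaled log2 fold change of −0.06 ± 0.10 (adjusted p = 0.640). *Col5a3*, the less widespread chain of type V, was called lower at −0.28 ± 0.08 on the log2 scale (adjusted p = 0.0451), a call lost with any 1 of the 4 arrays left out (adjusted p from 0.0784 to 0.262), with median scaling (adjusted p = 0.112) and with the methods' test described above.

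*Col3a1* makes type III collagen, a homotrimer of distensible tissues, and its gene neighbors *Col5a2* on chromosome 1. Its signal was 2369 and 2141 in untreated AECs and 538 and 351 after OGD, with no overlap. The fall was 2.00-fold, with an SE of 0.18 on the log2 scale (adjusted p = 0.0123), and just passed the 2-fold limit. *Col2a1*, the chain of type II collagen of cartilage, lay just short of that limit at −0.99 ± 0.11 (adjusted p = 0.00366), with 3053 and 3183 falling to 699 and 524, and is named here after its values were seen. *Col3a1* too was not called without either of these arrays (adjusted p = 0.0720 and 0.0566), nor by the methods' test.

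Type I collagen, the main collagen of fibrous tissue, is made of the *Col1a1* and *Col1a2* chains. *Col1a2* was at 17567 and 16155 in untreated AECs and 7241 and 4835 after OGD, and after scaling the groups overlapped, with a log2 fold change of −0.14 ± 0.17 (adjusted p = 0.508). *Col1a1* was at 16436 and 11667 in untreated AECs and 3379 on OGD replicate 2. Its single spot on OGD replicate 1 was marked an outlier and left out, so that the log2 fold change of −0.57 ± 0.28 (adjusted p = 0.182) rests on 3 arrays. With that spot kept, at 6191, it was −0.23 (adjusted p = 0.547).

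Type XI chains, which seed type II fibrils, were not called with 75th-percentile scaling. *Col11a1* went from 4161 and 3883 to 1450 and 995 and *Col11a2* from 102 and 110 to 29.4 and 36.4, and the scaled log2 fold changes were −0.37 ± 0.15 and −0.32 ± 0.20. *Col11a1* was called lower with normexp, with the percentile over detected probes and without OGD replicate 1 (adjusted p = 0.0364, 0.0398 and 0.0219). *Col11a2* was called higher with normexp, at 0.48 (adjusted p = 0.00605), where the median of all gene names was 0.51. Without OGD replicate 2 *Col11a2* was at −0.58. The probe of *Col27a1* was at 50.4 and 44.7 in untreated AECs and was not well above background on either OGD array, so that its change has only a bound and was at least 2.75-fold lower (fitted log2 fold change −2.68 ± 0.72, adjusted p = 0.0356). With normexp *Col27a1* was called in the opposite direction, at 0.50 (adjusted p = 0.00878), where the median of all gene names was 0.51. Normexp adds an offset of 50, and the processed signals of this probe after OGD were 1.54 and 5.30, so that value is not given as a rise. The fitted value ran from −3.67 to −1.69 with 1 array left out, the ends being the fits without 1 of the OGD arrays, and the call was lost without either untreated array (adjusted p = 0.129 and 0.118), with the methods' test and with no filter on dim probes (adjusted p = 0.0516).

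*Col9a1* had the largest change of any collagen tested. It encodes a chain of type IX collagen, which coats type II fibrils in cartilage and in the vitreous, and which assembles from the *Col9a1*, *Col9a2* and *Col9a3* chains. The *Col9a1* signal was 543 and 541 in untreated AECs, and it was 29.9 and 22.4 in OGD AECs, so that neither group varied by more than a small part of the gap between them. The log2 fold change was −3.01 ± 0.11 (adjusted p = 0.000754), an 8.08-fold fall relative to the array, and it stayed below 0 at −1.59 with normexp and −4.30 with spike-in scaling. With normexp *Col5a2* had a larger change, at −1.94. A second *Col9a1* probe was well above background on 1 untreated array and was not tested.

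The partners went the other way relative to the array. *Col9a2* was at 238 and 225 in untreated AECs and 155 on each OGD array, a scaled log2 fold change of 0.79 ± 0.11 (adjusted p = 0.00573). *Col9a3* went from 30.2 and 34.0 to 16.4 and 16.3, a scaled log2 fold change of 0.40 ± 0.11 (adjusted p = 0.0402). Both were below 0 with spike-in scaling, at −0.50 and −0.89, and *Col9a3* was not called without any 1 of untreated replicate 1, untreated replicate 2 and OGD replicate 2 (adjusted p = 0.200, 0.109 and 0.0906), nor with quantile normalization or the percentile over detected probes (adjusted p = 0.0774 and 0.146), nor by the methods' test. *Col9a2* was not called without untreated replicate 2 (adjusted p = 0.0530). *Sox9*, a transcription factor of cartilage, was among the 2 astrocyte markers called lower (log2 fold change −1.52, adjusted p = 0.00103), where 6 astrocyte markers were called higher. What part *Sox9* had in the values of these chains was not tested.

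The probe that read *Col9a1* lies on chr1:24259125-24259184 of mm9 and holds AATAAA, the hexamer that usually precedes the cleaved end of an mRNA, as 11 of the 70 collagen probes (15.7%) and 12.6% of all other probes did. The hexamer places a probe near a possible 3′ end, and it is shown, in capitals within 30 bases, for *Col9a1* and for the probes of *Col18a1* and *Col22a1* whose changes are compared further on.
Col9a1, in the probe at chr1:24259125-24259184: cccactacattcAATAAAattggtgcttaa
Col18a1, upstream probe at chr10:76515790-76515849: atgtaatcctcaagaAATAAAaggaagcca
Col18a1, downstream probe at chr10:76514926-76514985: aaagaggcaccaAATAAAaatgacatttta
Col22a1, downstream probe at chr15:71628906-71628965: tgtgagttgcaaAATAAAagttttcaatgg

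By brightest probe, no other fibril-associated chain was called lower. *Col22a1*, a chain found at tissue junctions, had a brightest probe at 2922 and 3158 in untreated AECs and 2169 and 2027 after OGD, a scaled log2 fold change of 0.84 ± 0.09 (adjusted p = 0.00319). *Col16a1* was at 11842 and 12387 and then 5558 and 5236, and *Col20a1* at 67.2 and 67.4 and then 24.3 and 32.2. Their scaled log2 fold changes of 0.21 and 0.11 were not called (adjusted p = 0.101 and 0.702), but both were with normexp (adjusted p = 0.0462 and 0.000675). *Col12a1*, named here after its values were seen, had the largest scaled rise of the class at 0.98 ± 0.09 (adjusted p = 0.00253), from 4135 and 3937 to 3418 and 2753. *Col19a1* was called at 0.57, but it was not well above background on either OGD array and is given no direction, although the counts of called genes include it. All of these were below 0 with spike-in scaling.

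Type IV chains pair by gene, since *Col4a1* with *Col4a2*, *Col4a3* with *Col4a4*, and *Col4a5* with *Col4a6* each lie head to head. *Col4a1* and *Col4a2* make the network of nearly all basement membranes, including that of brain vessels. *Col4a1*, read by 10 spots, was at 6306 and 6618 in untreated AECs and 3436 and 2836 after OGD. *Col4a2* was at 2733 and 2786 and then 928 and 731, so that both signals were lower after OGD without overlap. After scaling, *Col4a1* was higher by 0.32 ± 0.08 (adjusted p = 0.0307) and *Col4a2* lower, at −0.37 ± 0.09 (adjusted p = 0.0288), and with spike-in scaling *Col4a1* was below 0 too, at −0.96. The call of *Col4a1* was lost with quantile normalization (0.15, adjusted p = 0.191), with the percentile over detected probes (0.17, adjusted p = 0.142) and with median scaling (adjusted p = 0.0711), and that of *Col4a2* with median scaling (adjusted p = 0.0630) and the methods' test.

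*Col4a5* and *Col4a6*, which form a network in the basement membranes of smooth muscle and skin, had close changes. *Col4a5* went from 11222 and 10771 to 6004 and 5323 and *Col4a6* from 18554 and 19731 to 10050 and 8835. Both were higher after scaling, at 0.41 ± 0.08 (adjusted p = 0.0145) and 0.35 ± 0.08 (adjusted p = 0.0215), and below 0 with spike-in scaling, at −0.87 and −0.94. The calls of *Col4a1*, *Col4a2*, *Col4a5* and *Col4a6* were each lost without untreated replicate 1 and without untreated replicate 2, with adjusted p values of 0.0848 and 0.123 for *Col4a5*. That of *Col4a5* was lost with quantile normalization as well (0.13, adjusted p = 0.222), and those of *Col4a5* and *Col4a6* with the percentile over detected probes (adjusted p = 0.0537 and 0.103). The sign of *Col4a6* turned with quantile normalization, to −0.0914.

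*Col4a3* and *Col4a4* belong to the network best known from the kidney glomerulus. *Col4a3* was at 29.95 and 25.8 in untreated AECs and 24.2 and 20.6 after OGD, which scaling turned into a log2 fold change of 1.06 ± 0.11 (adjusted p = 0.00337), against −0.23 with spike-in scaling. The brightest *Col4a4* probe fell from 168 and 179 to 20.9 and 21.7, a log2 fold change of −1.65 ± 0.12 (adjusted p = 0.00156). With normexp it was −0.15 and was not called (adjusted p = 0.219). The probe of *Col4a4* on the helical stretch printed above, 67684 bases upstream, went from 13.6 and 12.7 to 9.74 and 11.6, a scaled log2 fold change of 1.07 ± 0.18 (adjusted p = 0.0102), so that the direction of *Col4a4* relative to the array depended on the probe. With spike-in scaling both probes were below 0, at −0.22 for the upstream and −2.94 for the brightest one.

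Type VI collagen is assembled from the *Col6a1* and *Col6a2* chains with *Col6a3* or one of the later chains *Col6a4* to *Col6a6*. *Col6a5* was the one member whose signal rose before scaling. It was at 34.9 and 36.8 in untreated AECs and 43.8 and 40.0 after OGD, with no overlap. Its log2 fold change was 1.60 ± 0.08 (adjusted p = 0.000944) with 75th-percentile scaling and 0.31 with spike-in scaling. The probe was well above background on all 4 arrays but dim, and a second *Col6a5* probe was not so on any array.

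*Col6a1* went from 6772 and 7750 to 4333 and 3962 and *Col6a2* from 334 and 390 to 192 and 217. Their scaled log2 fold changes were close, at 0.57 ± 0.10 (adjusted p = 0.0115) and 0.55 ± 0.17 (adjusted p = 0.0503), and both were below 0 with spike-in scaling, at −0.72 and −0.73. *Col6a2* was called with normexp, quantile normalization, median scaling, the trend and robust prior, the stricter filter and without OGD replicate 1 (adjusted p from 0.00264 to 0.0354). The call of *Col6a1* was lost without untreated replicate 1 (adjusted p = 0.0799) and with the methods' test. *Col6a3*, the long chain that links the filament to the cell surface and matrix, went from 269 and 232 to 89.9 and 54.5, with a scaled log2 fold change of −0.46 ± 0.22 (adjusted p = 0.139), and was called without OGD replicate 1 (−0.73, adjusted p = 0.0253).

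Among the remaining classes, *Col17a1*, a transmembrane collagen of epithelial anchoring complexes, fell from 81.1 and 75.9 to 8.63 and 6.92, and it was well above background on 1 of the 2 OGD arrays. Its log2 fold change was −1.97 ± 0.10 (adjusted p = 0.000932), but 0.12 with normexp, so that its fall was not seen under that background correction. *Col8a1* and *Col8a2* form hexagonal networks below endothelial cells. *Col8a2* went from 1099 and 1269 to 782 and 691, a scaled log2 fold change of 0.69 ± 0.10 (adjusted p = 0.00698), which was −0.60 with spike-in scaling and was not called without untreated replicate 1 (adjusted p = 0.0530). *Col8a1* went from 4661 and 3860 to 2405 and 1158, and the spread of its OGD replicates left it at 0.03 ± 0.34 (adjusted p = 0.948). *Col18a1*, the precursor of endostatin, had a brightest probe at 6021 and 5951 in untreated AECs and 4092 and 2321 after OGD, a scaled log2 fold change of 0.42 ± 0.24 (adjusted p = 0.197), against −0.87 with spike-in scaling. It was 0.10 without OGD replicate 1, and without OGD replicate 2 it was called at 0.73 (adjusted p = 0.00896).

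Whether listed pairs of chains changed alike, most of which share a molecule, a type or a locus, was tested within each array, as the difference of their log2 signals, which does not depend on scaling between arrays. Of 18 pairs listed, 13 could be tested, and 7 of them changed unequally by adjusted p, which was adjusted over these and 6131 pairs of probes of 1 gene, of which 48.5% were called. *Col9a2* and *Col9a3* rose relative to *Col9a1* by 3.81 (95% interval 3.37 to 4.24; adjusted p = 0.000199) and 3.42 (2.97 to 3.87; adjusted p = 0.000240) on the log2 scale. *Col5a2* fell relative to *Col5a1*, with a difference of −2.00 (−2.93 to −1.06; adjusted p = 0.00909), and relative to its neighbor *Col3a1*, with −1.05 (−1.65 to −0.45; adjusted p = 0.0173). The 7 of 13 stand near that share of probe pairs within single genes, so that unequal change of a pair of probes was common on these arrays and is not particular to the chains.

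*Col4a2* fell relative to *Col4a1*, with a difference of −0.70 on the log2 scale (95% interval −0.96 to −0.43; adjusted p = 0.00477). By its brightest probe *Col4a4* fell relative to *Col4a3*, with −2.71 (−3.15 to −2.27; adjusted p = 0.000369). The upstream *Col4a4* probe had a scaled change of 1.07, beside 1.06 for *Col4a3*. Both of these probes were dim, with processed signals between 9.74 and 29.95 over the arrays, and their difference was not tested. *Col6a3* fell relative to *Col6a1*, with −1.03 (−1.69 to −0.38; adjusted p = 0.0249), which was not called after quantile normalization (−0.75, adjusted p = 0.0738). Without untreated replicate 1 the differences of *Col5a2* from *Col5a1* and from *Col3a1*, of *Col4a2* from *Col4a1* and of *Col6a3* from *Col6a1* were no longer called (adjusted p = 0.0554, 0.0975, 0.0600 and 0.132), and without untreated replicate 2 neither were the last 3 of these (adjusted p = 0.0731, 0.0507 and 0.0512). With the methods' test the differences of *Col5a2* from *Col5a1* and from *Col3a1* and of *Col6a3* from *Col6a1* were not called.

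The pairs not called differ in how tightly the data bound them. The difference of *Col4a6* from *Col4a5* was −0.06, with a 95% interval of −0.35 to 0.23, that of *Col4a5* from *Col4a1* was 0.09 (−0.20 to 0.38), and that of *Col6a2* from *Col6a1* was −0.01 (−0.38 to 0.35). The intervals were wider for *Col11a2* against *Col11a1* (−0.73 to 0.82) and for *Col8a2* against *Col8a1* (−0.21 to 1.54), and without OGD replicate 1 both of these pairs were called (adjusted p = 0.0321 and 0.00719). The interval of *Col6a1* against *Col4a1*, which share neither a molecule nor a locus, was −0.06 to 0.55. The pairs with *Col1a1* lacked an array. With the outlier spot kept, an alternative chosen after seeing the data, *Col1a2* against *Col1a1* was at 0.09 (−0.38 to 0.56) and *Col3a1* against *Col1a1* at −0.78 (−1.22 to −0.33; adjusted p = 0.0180).

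**Figure D3:**
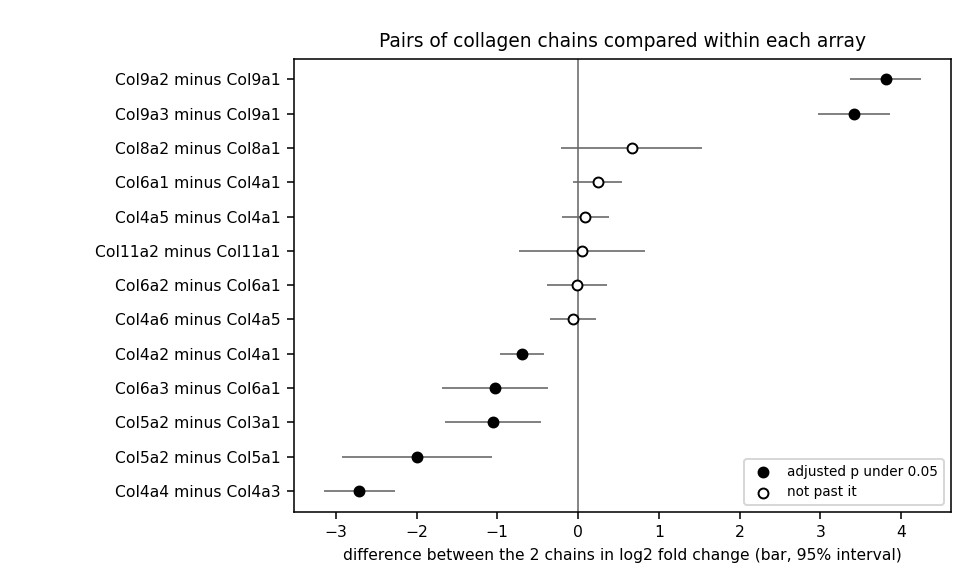
Difference between 2 collagen chains in their log2 fold change after OGD, measured within each array, for the 13 pairs tested (circle with 95% interval, filled where the adjusted p was under 0.05). The 7 filled circles run from −2.71 for *Col4a4* against *Col4a3* to 3.81 for *Col9a2* against *Col9a1*, and the 6 open circles have intervals that include 0.

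Probes at different places of 1 collagen mRNA were compared in the same way. Of 13 pairs of probes in 11 collagen genes, all well above background on every array, 5 were called and 8 were not, against 48.5% called over all such pairs. In each of the 5 the probe nearer the 3′ end had the lower log2 fold change, as in 85.8% of the 2944 called pairs of all genes whose positions are known, so that this order is not particular to the collagens. The differences of the downstream from the upstream probe were −2.72 in *Col4a4*, −1.96 in *Col22a1*, −1.06 in *Col16a1*, −0.95 in *Col18a1* and −0.72 in *Col20a1*. The methods' test did not call those of *Col16a1* and *Col18a1*, and that of *Col20a1* was lost without untreated replicate 2 (adjusted p = 0.0537).

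In *Col22a1* the upstream probe kept 2169 and 2027 of 2922 and 3158, whereas the downstream probe, which holds the hexamer shown above, fell from 2289 and 2546 to 442 and 417. Scaled, the downstream probe was at −1.12 ± 0.10 (adjusted p = 0.00214) and the upstream one at 0.84, so that *Col22a1* had no single direction relative to the array. With spike-in scaling both were below 0, at −2.41 and −0.45. In *Col18a1* the pair of probes lies 864 bases apart, and each holds AATAAA. The downstream *Col18a1* probe went from 6106 and 5669 to 1922 and 1288, a larger fall than the upstream probe showed (adjusted p of the difference 0.00373). The upstream *Col16a1* probe of the called pair was dim, at 13.2 and 9.89 and then 10.5 and 10.7. The upstream *Col20a1* probe was at 46.8 and 45.4 and then 28.0 and 35.7.

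**Figure D4:**
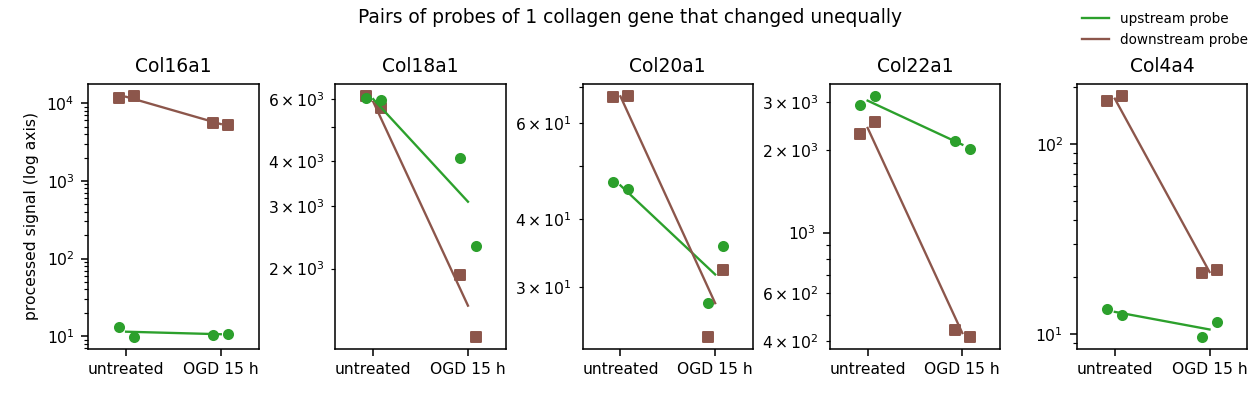
Processed signal (log axis) of the upstream (green circles) and downstream (brown squares) probe of the 5 collagen genes whose pair of probes changed unequally, with 1 point per array and a line between the geometric means of the groups. The brown line falls more steeply than the green one in all 5 genes, from 2289 and 2546 to 442 and 417 in *Col22a1*.

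Genes of collagen synthesis, export and cross-linking, most of them enzymes and some of them chaperones or carriers, were described from a list of 34, of which 33 were tested. By adjusted p 17 were higher and 3 lower, against 37.1% and 27.8% of all gene names, and the median log2 fold change was 0.40, where that of all gene names was 0.16. With spike-in scaling *P4ha2*, *Lox* and *P4ha1* were above 0, as were 7.23% of all gene names. *P4ha2*, a catalytic subunit of prolyl 4-hydroxylase, had the largest change by brightest probe. It rose before scaling, from 1032 and 1056 to 1936 and 1831, with a log2 fold change of 2.22 ± 0.08 (adjusted p = 0.000767). *P4ha1* was at 5421 and 5248 and then 5834 and 5142, so that its signals overlapped before scaling, with a scaled log2 fold change of 1.41 ± 0.08 (adjusted p = 0.00106). *P4hb*, the shared beta subunit, was at 1.22 and *P4ha3* at 0.85.

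*Lox*, a lysyl oxidase that cross-links collagen and elastin, rose from 441 and 463 to 851 and 517, a log2 fold change of 1.93 ± 0.20 (adjusted p = 0.00330), and its second probe was at 3.37. Its relative *Loxl2*, which also cross-links type IV collagen, was at 1.25, whereas *Loxl1* was at −0.78. The remaining named members were *P3h2* at 1.23 and *Plod3* at 0.86, which hydroxylate proline and lysine, and the procollagen N-proteinases *Adamts3* at 1.14 and *Adamts14* at −0.68. *Pxdn*, peroxidasin, which joins type IV molecules, was at −1.43 by its brightest probe (8276 and 8326 to 1239 and 1143) but at 2.28 by another probe (338 and 385 to 582 and 783), so that *Pxdn* too had no single direction. All of these values passed an adjusted p of 0.05. With spike-in scaling the brightest probes of *P4hb*, *P4ha3*, *Loxl2*, *Loxl1*, *P3h2*, *Plod3*, *Adamts3*, *Adamts14* and *Pxdn* were below 0, from −0.0389 for *Loxl2* to −2.72 for *Pxdn*. A second *Adamts3* probe was not well above background on either OGD array and is given no direction. A second *Adamts14* probe, dim but well above background on all 4 arrays, was at 0.35 and was not called (adjusted p = 0.0938).

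**Figure D5:**
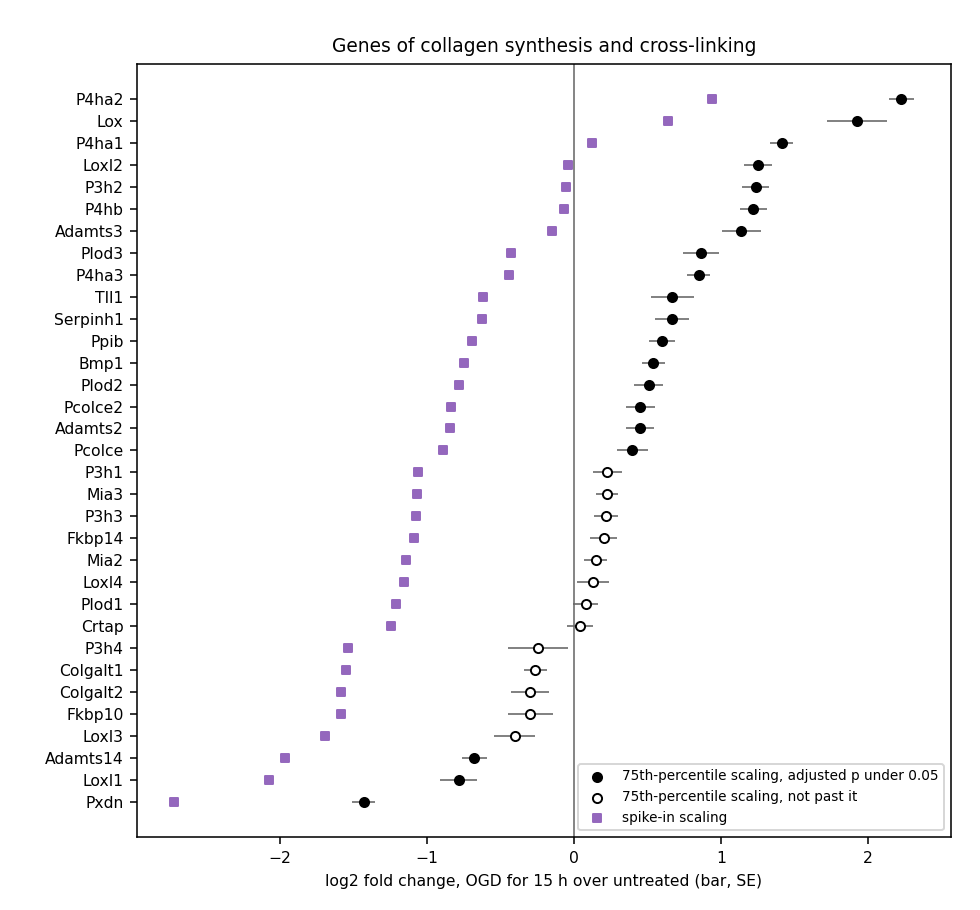
Log2 fold change of OGD over untreated AECs for the 33 tested genes of collagen synthesis and cross-linking (circle with SE, filled where the adjusted p of limma was under 0.05; purple square, spike-in scaling). *P4ha2* lies highest at 2.22 and *Pxdn* lowest at −1.43, and 3 squares lie above 0.

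The start sites of collagen and biosynthesis genes were compared for ACGTG, the core of the hypoxia response element to which HIF-1 binds, on both strands of windows from 250 bases before to 50 after the start in RefSeq (GRCm38.p6). Windows were found for 35 of the 44 collagen genes and 24 of the 34 biosynthesis genes. The letters were in 5 of 38 collagen windows (13.2%), in 12 of 29 windows of the biosynthesis genes (41.4%) and in 19.6% of all 32851 windows, and the related GCGTG was in 26.3%, 58.6% and 32.4%. A match describes these windows and says nothing of binding. By brightest probe the biosynthesis genes with ACGTG did not share a direction relative to the array. They included *Pxdn*, which was lower, *Fkbp14*, *Mia2*, *Mia3* and *P3h1*, which were not called at 0.15 to 0.23, and the higher *P4ha1*, *P4ha2*, *P4hb*, *Adamts3*, *Plod3*, *Ppib* and *Serpinh1*. Of the uncalled genes, *P3h1* had a second probe that was called lower at −1.41 (402 and 438 to 56.6 and 65.8, adjusted p = 0.00437), and second probes of *Mia3* and *Fkbp14* were called at 0.51 and 0.35 (adjusted p = 0.0136 and 0.0490). The collagen genes with it were *Col1a2*, *Col4a4*, *Col5a1*, *Col11a2* and the untested *Col6a6*. Stretches are shown for members of each kind, with the 5 letters or their complement in capitals, each read along the gene's own strand.
Col1a2, chr6:4505519-4505548, plus strand, scaled log2 fold change −0.14: aagccccgtagcCACGTccctcccccctcg
Col4a4, chr1:82586916-82586945, minus strand, −1.65: gggtgcaggtcaACGTGaggaatttagggg
P4ha1, chr10:59323268-59323297, plus strand, 1.41: tgtgacagagcgCACGTagcgagggctgcg
P4ha2, chr11:54100834-54100863, plus strand, 2.22: tgtgcatcgcatACGTGcagcgcgtggcgg
Mia3, chr1:183369632-183369661, minus strand, 0.22, not called by brightest probe: gagcccttgctgACGTGtcactcgcagcag
Pxdn, chr12:29938013-29938042, plus strand, −1.43: cgcacagctgggACGTGggccggggaccgg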

How the data were processed

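Total RNA of 2 untreated and 2 OGD-treated AECs was labeled with Cy3 and hybridized by the authors to 1-color arrays of 60-base probes. The deposited files hold Feature Extraction output (version 11.5.1.1 per the labels), whose processed signal is an intensity that the authors' scanner software had corrected for background. The deposited value table equals this signal (largest difference 0). Spots of a probe were averaged, spots marked as outliers and control spots were left out, and log2 of the deposited intensity was set against the 75th percentile of each array. A probe entered the test if either group had it well above background on its 2 arrays. The test was that of limma 3.58.1 in R 4.3.3 (lmFit and eBayes), with Benjamini–Hochberg adjustment over all probes tested and a limit of 0.05. A gene was represented by the probe with the highest mean normalized signal. Summaries were made in Python 3.11.15 with pandas 2.3.3.

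Unequal change of probes or chains was tested with limma on differences of log2 signal within arrays. Members named with the value on each array were those past the limit with a fold over 2, those of the chain pairs, and those whose probes changed unequally, beside *Col2a1* and *Col12a1*, chosen after their values were seen. From the lists, up to 12 biosynthesis and 6 receptor genes with the largest change past the limit were named, and those with the searched letters at the start site. The members, lists and pairs were chosen with earlier results of these data known. Alternatives were another background correction (normexp, offset 50), quantile, median, detected-probe and spike-in scaling (9 of 10 spike-in probes), other filters, outlier spots kept, the methods' t-test, a prior with a trend and robust fit, a block for the replicate number, the mean over probes, and each array left out. Keeping the *Col1a1* outlier spot for its pairs was chosen after seeing the data. On simulated data for this comparison (28163 probes), 170 of 200 probes changed by 3 on the log2 scale were recovered, and 4 unchanged probes were called. In the data 37.9% of all probes were called higher and 27.1% lower, and most collagen changes were smaller than 3. The simulation thus differs from the data and does not measure how well changes of the reported sizes were called. According to the methods, wells were seeded from separate cultures of different pups, and whether each array's RNA came from 1 well is not given in the sources used here. The number of arrays limits the precision. RefSeq promoter windows are on GRCm38.p6 and probe positions on mm9, and neither was converted.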

Additional observations from a re-analysis of the deposited data

How the results depend on the processing

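Spike-in scaling changed most. Under it 1 collagen gene was higher and 34 lower, 0 higher and 21 lower past 2-fold, by probe 1 higher and 44 lower, and of the biosynthesis and receptor genes 3 were higher and 39 lower, against 24 and 6, where 3.84% of all gene names were higher and 83.3% lower (55.7% past 2-fold). Class medians were then −1.77 (fibrillar), −0.95 (type IV), −0.74 (fibril-associated), −0.73 (type VI), −0.87 (multiplexin), −0.82 (transmembrane), −1.22 (other chains) and −1.26 (short-chain). The sign turned for 20 genes, *Col12a1* (−0.31), *Col14a1* (−0.74), *Col19a1* (−0.72), *Col23a1* (−0.82), *Col25a1* (−0.35), *Col7a1* (−1.06), *Col16a1* (−1.08), *Col18a1* (−0.87), *Col20a1* (−1.18), *Col22a1* (−0.45), *Col4a1* (−0.96), *Col4a3* (−0.23), *Col4a5* (−0.87), *Col4a6* (−0.94), *Col6a1* (−0.72), *Col6a2* (−0.73), *Col8a1* (−1.26), *Col8a2* (−0.60), *Col9a2* (−0.50) and *Col9a3* (−0.89). With normexp 21 genes and 31 probes were higher, with 6 genes higher and 2 lower past 2-fold, where 60.5% of all gene names and 62.8% of all probes were higher, and 23.6% and 7.27% of gene names were higher and lower past 2-fold. Medians were 0.26 (type IV), 0.91 (fibril-associated), 0.74 (short-chain) and 0.92 (transmembrane). The sign turned for *Col10a1* (0.81), *Col11a2* (0.48), *Col17a1* (0.12), *Col27a1* (0.50), *Col6a3* (0.0635) and *Col8a1* (−0.0164), for *Col6a2* against *Col6a1* (0.0545), and for the further probe against the brightest in *Col16a1* (−0.0091), *Col6a2* (0.30) and *Col8a2* (0.28). With quantile normalization 8 collagen probe pairs were called (55.6% of all pairs), medians were 0.0198 (type IV), 0.50 (type VI) and −0.66 (fibrillar), and the sign turned for *Col16a1* (−0.0926), *Col4a6* (−0.0914), *Col8a1* (−0.0627), *Col4a5* against *Col4a1* (−0.0156) and *Col6a2* against *Col6a1* (0.27). With the percentile over detected probes 8 genes (1 past 2-fold) and 12 probes were higher (30.1%, 9.06% and 31.0% over all features), medians were 0.18 (type IV), 0.41 (type VI), −0.0856 (other chains) and −0.13 (short-chain), and *Col20a1* (−0.0456) and *Col8a1* (−0.13) turned sign. The methods' t-test with Benjamini–Hochberg adjustment called 10 probes higher and 5 lower, 4 genes lower (3 past 2-fold), 15 list genes higher, 4 chain pairs and 3 probe pairs, where 26.1% and 18.9% of all probes, 19.8% of gene names lower (11.8% past 2-fold), 25.8% higher and 21.7% of all probe pairs were called, and it ended the calls of *Col19a1*, *Col23a1*, *Col27a1*, *Col3a1*, *Col4a2*, *Col5a2*, *Col5a3*, *Col6a1* and *Col9a3* (adjusted p = 0.146, 0.0583, 0.163, 0.0844, 0.0728, 0.104, 0.0566, 0.0548 and 0.119). Calls also ended for *Col4a1*, *Col4a5*, *Col4a6* and *Col9a3* with quantile normalization, and for these and *Col19a1* with the percentile over detected probes. They ended for *Col4a1*, *Col4a2* and *Col5a3* with median scaling, for *Col19a1* and *Col9a3* with the trend and robust prior, and for *Col4a4* and *Col17a1* with normexp. Those of *Col12a1* and *Col4a3* ended with spike-in scaling, and those of *Col19a1*, *Col27a1*, *Col4a1*, *Col4a2*, *Col5a3* and *Col9a3* with no filter. Calls were gained for *Col11a1*, *Col14a1*, *Col16a1*, *Col1a1*, *Col20a1*, *Col25a1* and *Col6a2* with normexp, which also called *Col10a1*, *Col11a2* and *Col27a1* with the turned sign, for *Col1a2* and *Col6a2* with quantile normalization, for *Col14a1*, *Col25a1* and *Col6a2* with median scaling, for *Col11a1* with the percentile over detected probes, for *Col16a1*, *Col6a2* and *Col7a1* with the trend and robust prior, and for *Col14a1* and *Col6a2* with probes well above background on all 4 arrays. With no filter 4 genes were higher past 2-fold (21.9% of all gene names), with probes well above background on all 4 arrays the short-chain median was 0.36, and with the mean over probes the multiplexin median was −0.0574. Spike-in scaling moved the log2 fold change of all probes measured on 4 arrays by 1 common amount, so the signs turned under it come from a single subtraction. Between OGD and untreated arrays the 75th percentile differed by −1.37 on the log2 scale and the spike-in mean by −0.085. Normexp adds an offset of 50, which exceeds the signal of the dimmest probes. What part each step had in the other shifts was not tested.

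With 1 array left out, collagen genes called ranged from 5 to 15 higher (1 to 3 past 2-fold) and 4 to 11 lower (3 to 8 past 2-fold), probes from 7 to 24 higher and 5 to 13 lower, list genes from 13 to 26 higher and 2 to 10 lower, chain pairs from 3 to 9 and probe pairs from 4 to 8. Over all gene names 19.7% to 37.8% were then higher and 17.6% to 29.5% lower, and 29.3% to 58.8% of all probe pairs were called. Medians ranged from −0.63 to −0.35 (fibrillar), 0.45 to 0.67 (type VI), −0.40 to 0.46 (short-chain) and 0.10 to 0.73 (multiplexin, *Col18a1* alone). Signs differed among these fits for *Col1a2* (−0.33 to 0.0589), *Col5a1* (−0.13 to 0.0211), *Col8a1* (−0.40 to 0.46), *Col20a1* (−0.19 to 0.41) and *Col26a1* (−0.20 to 0.0070), for *Col11a2* against *Col11a1* (−0.38 to 0.47), *Col4a6* against *Col4a5* (−0.14 to 0.0118) and *Col6a2* against *Col6a1* (−0.17 to 0.14), and for the probes of *Col14a1* (−0.0525 to 0.39) and *Col6a2* (−0.40 to 0.39). Calls of *Col27a1*, *Col3a1*, *Col5a2*, *Col4a1*, *Col4a2*, *Col4a5*, *Col4a6*, *Col5a3*, *Col9a3*, *Col19a1* and *Col23a1* were lost without untreated replicate 1 and also without untreated replicate 2, those of *Col6a1* and *Col8a2* without the first, and that of *Col9a2* without the second. Those of *Col4a2*, *Col5a3*, *Col9a3* and *Col19a1* were lost without OGD replicate 2, and those of *Col4a1* and *Col5a3* without OGD replicate 1. Calls were gained for *Col10a1*, *Col11a1*, *Col20a1*, *Col25a1*, *Col6a2* and *Col6a3* without OGD replicate 1 and for *Col10a1*, *Col11a2*, *Col14a1* and *Col18a1* without OGD replicate 2. The lone array of a group is assumed to vary like the other group.

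Same-numbered samples share only a number (correlation of deviations −0.06 over 2 pairs). With the replicate block 12 collagen genes were higher and 7 lower, 19 probes were higher and 9 lower, and 8 chain pairs were called. Of all gene names 34.3% were then higher and 26.3% lower, of all probes 35.1% and 25.8%, and 47.5% of all probe pairs were called. The block ended the calls of *Col4a1* (0.32), *Col4a2* (−0.37), *Col4a6* (0.35), *Col5a3* (−0.28) and *Col19a1* (0.57; adjusted p = 0.0710, 0.0574, 0.0525, 0.0877 and 0.0801) and added *Col6a2* (0.55; adjusted p = 0.0267), *Col14a1* (0.55) and *Col8a2* against *Col8a1* (0.66; adjusted p = 0.0285).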

Other observations

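Genes that bind collagen or receive its signal were not described above. Of 18 such genes, 17 were tested, and by adjusted p of limma 7 were higher and 3 lower after OGD, against 37.1% and 27.8% of all gene names, so that the share called was near that of all genes (median log2 fold change 0.27, against 0.16). With spike-in scaling 2 were above 0, as were 7.23% of all gene names. *Itgb1*, the beta subunit shared by the collagen-binding integrins, rose before scaling, from 8352 and 9111 to 12963 and 12736, with a log2 fold change of 1.93 ± 0.10 (adjusted p = 0.00102) and 0.64 with spike-in scaling. A second *Itgb1* probe was at 1353 and 1330 and then 1569 and 1083, so that its signals overlapped before scaling, with a scaled log2 fold change of 1.33 (adjusted p = 0.00348) and 0.0438 with spike-in scaling. Its alpha partners differed. *Itga10* fell from 293 and 271 to 40.5 and 35.0 (−1.53 ± 0.09, adjusted p = 0.00113), and its second probe was also at −1.53. *Itga11* was at 1667 and 1603 and then 1476 and 1252, a scaled log2 fold change of 1.11 ± 0.08 (adjusted p = 0.00161), against −0.18 with spike-in scaling.

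Among matrix partners, *Bgn*, the proteoglycan biglycan, was at 608 and 718 in untreated AECs and 870 and 713 after OGD, so that its signals overlapped before scaling, with a scaled log2 fold change of 1.63 ± 0.11 (adjusted p = 0.00151). *Fmod*, fibromodulin, which binds type I fibrils, was at 8962 and 8925 and then 8626 and 8027 (1.27 ± 0.08, adjusted p = 0.00133). *Nid1*, nidogen, which links laminin to type IV collagen, was at 5198 and 5222 and then 4117 and 2920 (0.79 ± 0.13, adjusted p = 0.0102). With spike-in scaling *Fmod* was at −0.0193 and *Nid1* at −0.50 by brightest probe. The difference between any of these genes and the collagens was not tested.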
